A study of Pimephales promelas with 26 samples.

Results

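The comparison described here set 5 libraries from fathead minnow larvae exposed to fluoxetine at a measured 0.74 µg/L against 5 libraries from larvae kept in water alone. These 10 were chosen by their labels from the 26 libraries of the study. Each library came from a pool of 20 whole larvae of the species Pimephales promelas, a cyprinid that is widely used to test toxicity. In both groups embryos were placed in glass dishes within 6 h of fertilization, kept under 1 temperature and light cycle, and sampled 7 days after fertilization, the exposed ones having been in fluoxetine from 6 h onward with daily partial renewal of the water. The remaining 16 libraries came from larvae at 0.19 (n = 3), 3.38 (n = 5), 10.2 (n = 5) and 47.2 µg/L (n = 3). Per the protocol, each replicate had its own set of embryos, so p-values weigh differences against the spread between pools of larvae. In the main fit that spread was estimated within groups over all 26 libraries. Whole pools cannot show which organ a transcript came from.

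Fluoxetine is an antidepressant that blocks the serotonin transporter, the membrane protein that returns serotonin from the synapse to the nerve ending. In fish it reaches the animal from the water, and serotonin acts there on brain, pituitary, gut and gills much as in mammals. Fluoxetine is also a cationic amphiphilic compound, a class known to collect in lysosomes, and it is cleared by cytochrome P450 enzymes.

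At 0.74 µg/L few transcripts separated from water in the fit used here, which left out the replicate letters. That fit called 39 transcripts and 32 gene sums, beside 103 and 277 with the letters as a block. The smallest p of all belonged to slc22a16, a membrane transporter of organic cations and carnitine, which rose and was higher in all 5 exposed libraries than in any water library. Others that rose encode hippocalcin (hpca), a calcium sensor of neurons, kinectin (ktn1), a kinesin-binding protein of the endoplasmic reticulum, the beta-galactosidase relative glb1l2 and ndufb5, a subunit of respiratory complex I. Single transcripts of rab28, synpra, mbpa and srek1 fell, and 1 of the 2 transcripts of atp5mc3b rose while the other fell. Among the genes of these falling transcripts only rab28 was also called as a gene sum.

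The 10 libraries held between 13644872 and 27561882 estimated counts, so that 3 counts, taken as the floor of detection, equalled between 0.109 and 0.220 CPM (counts scaled to a library total of 1000000). Markers of muscle, liver, eye, skin, nervous system and blood were all present in both groups. Transcripts on a list of skeletal muscle genes summed to between 59910 and 77180 CPM in water. The libraries of the 2 groups also differed in a measure tied to fragment length, taken from the deposited effective lengths. Transcript length minus effective length, taken as the median over transcripts of at least 3000 bases, was 237, 238, 239.6, 237 and 235 bases in water replicates A to E and 255, 258, 259, 250.4 and 263 bases at 0.74 µg/L. The groups did not overlap, and the difference of 19.8 bases had an exact two-sided permutation p of 0.00794, the smallest that 5 libraries against 5 can give. Over transcripts of at least 1000 bases the means were 254 bases in water and 264 bases at 0.74 µg/L, 10.3 bases apart. The size of the difference thus depended on the cutoff, and the measure is not a direct reading of fragment length. The measure and fluoxetine at 0.74 µg/L cannot be told apart by the design of these 10 libraries.

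Of 43837 transcripts tested with edgeR's quasi-likelihood test at a Benjamini-Hochberg adjusted p below 0.05, 39 were called (0.089%), 24 higher at 0.74 µg/L (0.0547%) and 15 lower (0.0342%). The 2 groups did not overlap for 38 of the 39, against 2.63% of all transcripts tested. The absolute log2 fold change was below 0.5 for 13 of the 39, between 0.5 and 1 for 11, and at least 1 for 15. At an unadjusted p below 0.05 there were 3549 transcripts (8.10%), and the median log2 fold change over all tested was -0.0047. The log2 fold change was positive for 49.2% of all transcripts tested, and DESeq2 called 406 of the 43837. DESeq2 gave no adjusted p to some of these transcripts, that of slc6a4b among them, and they count here as not called. Counts given below for gene lists are to be read beside these shares and the 0.089% called by edgeR, and no list was tested as a set. A gene symbol was available for 26 of the 39, from 25 genes, with 18 higher and 8 lower, while 1 had a locus number and 12 had no gene in the reference table. When transcripts were summed per gene, 32 of 19052 genes were called (0.168%), 26 higher and 6 lower, and the groups did not overlap for any of the 32, against 3.87% of all genes. Levels of gene sums are CPM of the counts paired with a gene.

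**Figure D1:**
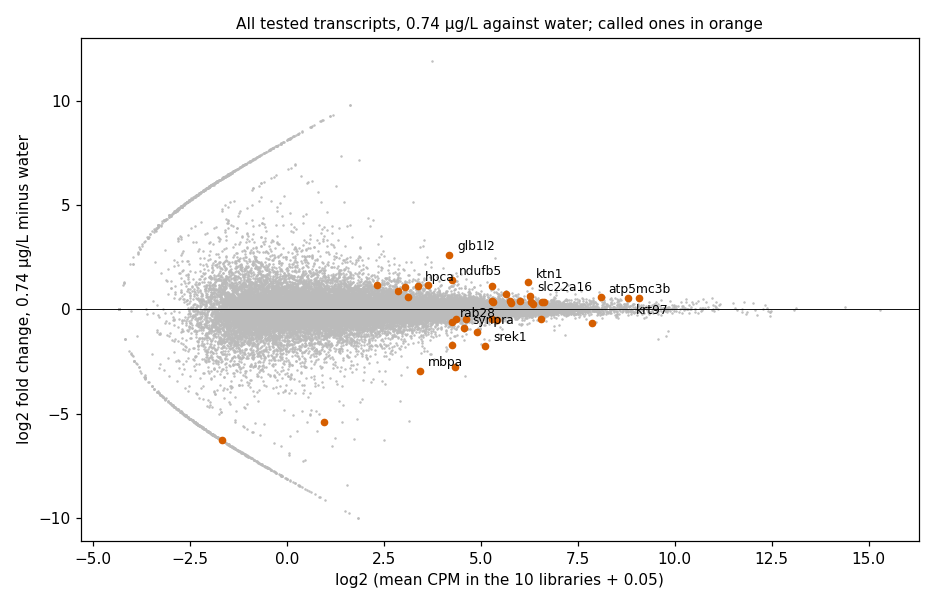
Log2 fold change at 0.74 µg/L against water (vertical axis) by mean level (horizontal axis, log2 of the mean CPM over the 10 libraries plus 0.05) for all 43837 transcripts tested. The 39 called transcripts are orange, and 11 of them are named, from mbpa at -2.93 to glb1l2 at 2.62. The curved edges are transcripts at or near 0 in 1 group.

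The target of the drug was examined first. The transcript of slc6a4b (XM_039658208.1), one of the pair of fish genes for the serotonin transporter, read 3.05, 3.96, 2.56, 2.89 and 2.24 CPM in water replicates A to E and 4.93, 4.01, 3.44, 3.50 and 3.61 CPM at 0.74 µg/L. The groups overlapped, since exposed replicates C, D and E lay below water replicate B, and the log2 fold change of 0.41 ± 0.18 (SE) was not called (edgeR adjusted p = 0.574). That of slc6a4a (XM_039662564.1) read 8.96, 8.27, 9.85, 10.8 and 7.12 CPM in water and 9.48, 11.0, 8.80, 9.27 and 8.51 CPM at 0.74 µg/L, with wide overlap and a log2 fold change of 0.07 ± 0.38 (SE; edgeR adjusted p = 1). This slc6a4a value turned to -0.11 with the fragment-length measure as a covariate. Among 31 transcripts of 28 genes of serotonin synthesis, storage, receptors and breakdown, 0 were called by edgeR and 2 had an unadjusted p below 0.05, slc6a4b and fev, a transcription factor of serotonin neurons. The fev transcript differed by 0.51 ± 0.23 (log2, SE; edgeR adjusted p = 0.567). The smallest p among those that were lower was that of aanat2, the enzyme that makes the melatonin precursor in the pineal gland, at -0.28 ± 0.17 (log2, SE; edgeR adjusted p = 0.772). The list's median log2 fold change was -0.01, beside -0.0047 over all transcripts.

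Among transporters and enzymes of drug handling, slc22a16 (XM_039693461.1) read 53.1, 64.5, 59.3, 61.9 and 60.6 CPM in water replicates A to E. At 0.74 µg/L it read 88.0, 91.2, 94.6, 94.4 and 98.8 CPM. All 5 exposed libraries lay above all 5 water libraries, with a gap between the groups of 23.5 CPM. The mean rose from 59.9 ± 4.23 CPM in water to 93.4 ± 4.05 CPM at 0.74 µg/L (SD, n = 5 each), a log2 fold change of 0.64 ± 0.06 (SE; edgeR adjusted p = 1.75e-05). The call held in each of the 26 fits that left out 1 library. It was also the single transcript call that remained when the fragment-length measure was added to the model as a covariate (log2 fold change 0.66, edgeR adjusted p = 0.0139). On the list of biotransformation and drug transport genes it was 1 of 23 transcripts and the only one called by edgeR, while DESeq2 called 2. The median log2 fold change of the list was 0.20, and 18 of the 23 were positive, beside 49.2% of all transcripts tested. Second by p was cyp3a65, a drug-metabolizing cytochrome P450, at 285, 274, 295, 244 and 259 CPM in water and 401, 401, 416, 377 and 358 CPM at 0.74 µg/L. The 2 groups of cyp3a65 values did not overlap, but its log2 fold change of 0.52 ± 0.14 (SE) was not called (edgeR adjusted p = 0.201).

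The largest rise among called transcripts with a symbol was that of glb1l2 (XM_039647641.1), related to the lysosomal beta-galactosidase. It read 2.81, 3.77, 5.42, 6.86 and 6.61 CPM in water and 38.1, 19.7, 29.6, 36.5 and 32.6 CPM at 0.74 µg/L. The exposed libraries ranged from 19.7 to 38.1 CPM and the highest water library was at 6.86 CPM. The log2 fold change came to 2.62 ± 0.50 (SE), with an edgeR adjusted p of 0.0429. This transcript's call was lost in every 1 of the 10 fits that left out a water or a 0.74 µg/L library, although the groups stayed apart. The glb1l2 gene has 1 transcript in the reference table, so its gene sum holds the same counts and is not separate support. In the fit of gene sums, with 19052 features tested, it was called (edgeR adjusted p = 0.00218), and that call held in all 26 fits. Of 84 lysosomal transcripts tested, glb1l2 was the only call by edgeR, and DESeq2 called 3. The list's median was 0.12, with 57 of 84 positive, beside 49.2% positive among all transcripts tested. The lysosomal protease lgmn (legumain) read 310.2, 289, 373, 358 and 253 CPM in water and 405, 388, 477, 411 and 442 CPM at 0.74 µg/L, with no overlap. Its log2 fold change was 0.42 ± 0.12 (SE) and was not called (edgeR adjusted p = 0.238).

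**Figure D2:**
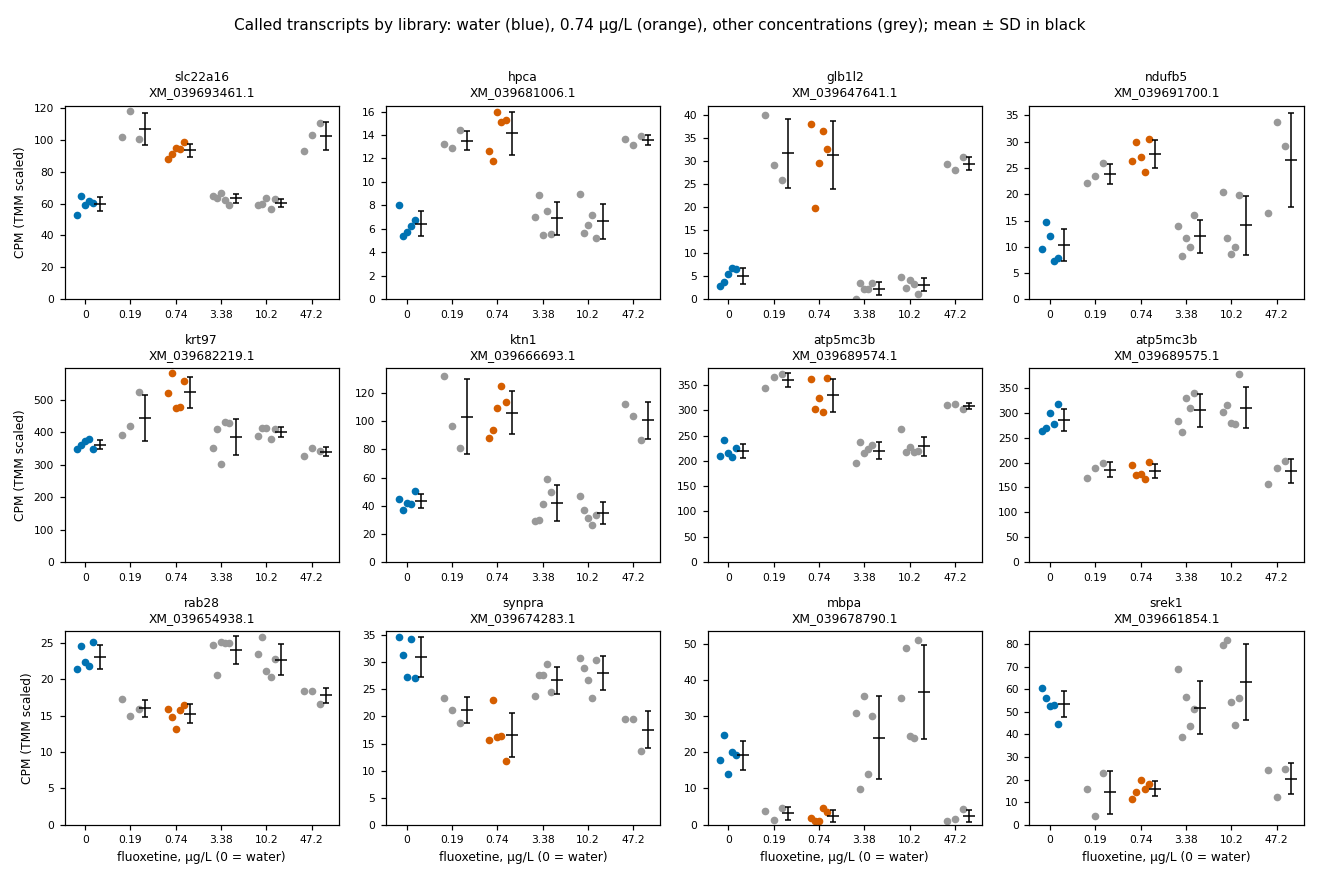
CPM of 12 called transcripts (vertical axes from 0) by fluoxetine concentration in µg/L, 1 point per library, with the mean and SD in black. Water libraries are blue and 0.74 µg/L libraries orange, and the 2 sets do not overlap in any panel, as for slc22a16 (53.2 to 64.5 CPM against 88.0 to 98.8 CPM).

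Subunits of the mitochondrial respiratory chain and ATP synthase gave 3 calls by edgeR among 83 transcripts, and 5 by DESeq2. Over all transcripts tested the calls were 0.089% by edgeR and 406 of 43837 by DESeq2. Both transcripts of atp5mc3b, which encodes subunit c of the ATP synthase rotor, changed, in opposite directions. Transcript XM_039689574.1 (860 bases) read 209, 241, 215, 208 and 225 CPM in water and 362, 302, 324, 296 and 363 CPM at 0.74 µg/L. Its partner XM_039689575.1 (699 bases) read 263, 270.0, 299.5, 277 and 317 CPM in water and 194, 175, 177, 167 and 202 CPM at 0.74 µg/L. Neither pair of groups overlapped. The first rose by 0.59 ± 0.07 (log2, SE; edgeR adjusted p = 0.000436) and the second had a log2 fold change of -0.64 ± 0.09 (SE; edgeR adjusted p = 0.00381). Together they did not change detectably, with a sum that differed by 0.02 ± 0.07 (log2, SE; edgeR adjusted p = 0.947). The first transcript's share of the gene's counts was 43.5% ± 2.3 (SD, n = 5) in water and 64.3% ± 0.65 (SD, n = 5) at 0.74 µg/L. In the deposited TPM, which correct for length, their means were 457 and 786 in water and 694 and 511 at 0.74 µg/L. Kallisto divides reads common to both transcripts by a model, so a shift within a gene is less certain than a change in its sum.

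For ndufb5 (XM_039691700.1), an accessory subunit of complex I, the values were 9.55, 14.6, 12.1, 7.29 and 7.93 CPM in water and 26.3, 29.9, 27.1, 24.2 and 30.6 CPM at 0.74 µg/L. The lowest exposed library exceeded the highest water library by more than the range of either group. Its log2 fold change came to 1.42 ± 0.25 (SE), with an edgeR adjusted p of 0.0248, and the transcript call was lost without water replicate A, D or E or 0.74 µg/L replicate A, B or E. The ndufb5 gene also has 1 transcript in the reference table, so its gene sum holds the same counts. XM_039691699.1, numbered just before the ndufb5 transcript, has no gene there. Its mean fell from 40.9 CPM in water to 19.3 CPM at 0.74 µg/L, while that of ndufb5 rose from 10.3 to 27.65 CPM. Whether both belong to 1 gene was not tested, so the ndufb5 sum may leave out a transcript. In the fit of gene sums the ndufb5 call held in all 26 fits (edgeR adjusted p = 0.0109). The remaining 80 respiratory transcripts were not called by edgeR, and the list's median was -0.10, with 20 of 83 positive. These are short transcripts, with a median length of 729 bases, and short transcripts as a class had lower medians in these libraries. The part of length in the median of the respiratory list was not tested.

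Hippocalcin (hpca, XM_039681006.1) read 8.07, 5.38, 5.71, 6.28 and 6.78 CPM in water and 12.6, 11.8, 16.0, 15.1 and 15.2 CPM at 0.74 µg/L. The lowest exposed library was at 11.8 CPM and the highest water library at 8.07 CPM. The log2 fold change came to 1.13 ± 0.15 (SE), with an edgeR adjusted p of 0.00154, the sum over its 2 transcripts rose by 1.16 ± 0.14 (edgeR adjusted p = 0.000297), and both calls held in all 26 fits without 1 library. It was the only edgeR call among 152 transcripts of calcium sensing and signalling, of which DESeq2 called 2, and the list's median was -0.03. In that list rcan1a, an inhibitor of the phosphatase calcineurin, read 16.7, 16.5, 16.6, 15.6 and 16.2 CPM in water and 12.4, 13.1, 12.1, 12.7 and 13.8 CPM at 0.74 µg/L without overlap, yet its log2 fold change of -0.35 ± 0.09 (SE) was not called (edgeR adjusted p = 0.227).

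Synaptoporin (synpra, XM_039674283.1), a membrane protein of synaptic vesicles, read 34.6, 31.4, 27.2, 34.4 and 27.0 CPM in water and 15.6, 23.1, 16.2, 16.4 and 11.7 CPM at 0.74 µg/L. Exposed replicate B was the highest of its group and still below all water libraries. The transcript fell by 0.90 on the log2 scale (SE 0.14; edgeR adjusted p = 0.00873), in all 26 fits. The sum over the 3 synpra transcripts differed by -0.28 ± 0.07 (log2, SE; edgeR adjusted p = 0.0909) and was not called, and the share of the called transcript was 61.3% in water and 40.0% at 0.74 µg/L. For anks1b (XM_039668359.1), a scaffold of the postsynaptic density, the values were 3.94, 5.33, 5.94, 4.40 and 6.21 CPM and 7.63, 8.30, 11.8, 9.60 and 9.65 CPM. It rose by 0.86 ± 0.17 (log2, SE; edgeR adjusted p = 0.0434) without overlap, but none of the 10 fits without a library of the 2 groups kept the call. Neither did its gene sum pass (0.61 ± 0.15, edgeR adjusted p = 0.0909). Of the 189 neuron and synapse transcripts these were the 2 calls by edgeR, beside 4 by DESeq2. The list's median was -0.09, and 70 were positive.

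The myelin basic protein gene mbpa has 3 transcripts, of which XM_039678790.1 read 17.8, 24.8, 13.9, 20.1 and 19.2 CPM in water and 1.94, 1.04, 0.960, 4.75 and 3.61 CPM at 0.74 µg/L. The highest exposed library was at 4.75 CPM and the lowest water library at 13.9 CPM. Its log2 fold change came to -2.93 ± 0.48 (SE), with an edgeR adjusted p of 0.0124, and the call was lost without 0.74 µg/L replicate A or B. The other 2 mbpa transcripts had means of 63.1 and 25.7 CPM in water and 81.3 and 26.4 CPM at 0.74 µg/L, neither of them called. The sum over the gene differed by 0.03 ± 0.11 (log2, SE; edgeR adjusted p = 0.956). For mpz, which encodes myelin protein zero, the sum over 4 transcripts rose from 22.2 ± 1.71 CPM in water to 30.9 ± 2.12 CPM at 0.74 µg/L (SD, n = 5 each) (log2 fold change 0.48 ± 0.09, SE; edgeR adjusted p = 0.0302). Its transcript XM_039694731.1 differed by 1.64 ± 0.36 without passing the test (log2, SE; edgeR adjusted p = 0.0965). Among the 43 glial and myelin transcripts mbpa was the only edgeR call, DESeq2 called 2, and the median was 0.02. A transcript of reticulon rtn1a (XM_039671847.1), a protein of the endoplasmic reticulum in neurons, read 91.5, 86.3, 86.3, 82.5 and 86.4 CPM in water and 108, 113, 106, 112 and 119.6 CPM at 0.74 µg/L, without overlap. It rose by 0.37 ± 0.06 (log2, SE; edgeR adjusted p = 0.0248), and the rtn1a sum differed by 0.07 ± 0.06 (edgeR adjusted p = 0.681).

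**Figure D3:**
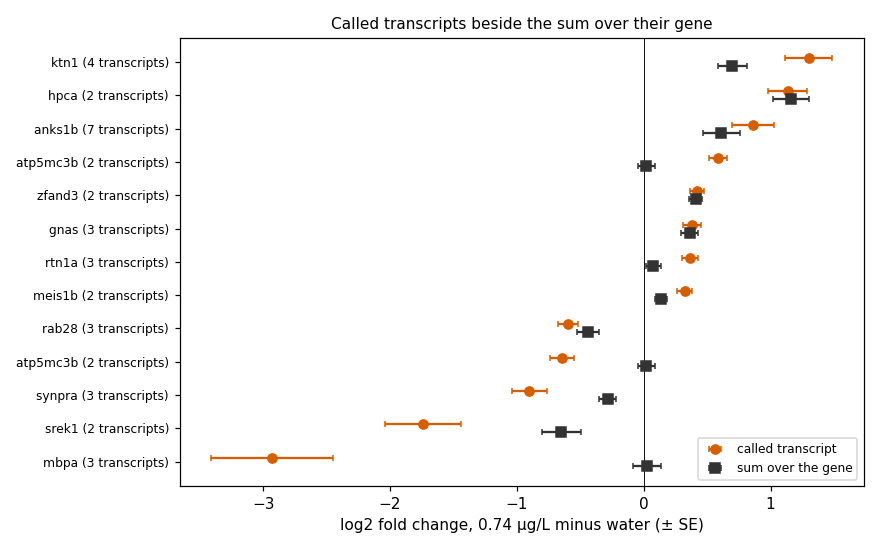
Log2 fold change ± SE at 0.74 µg/L against water for the 13 called transcripts of genes with more than 1 transcript (orange circles) and for the sum over each gene (black squares). The sums of hpca, zfand3 and gnas lie on the transcript's value, while those of atp5mc3b (0.02) and mbpa (0.03) lie at 0.

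Among G proteins, which pass signals from receptors to the cell interior, the stimulatory alpha subunit gnas (XM_039692530.1) read 34.9, 29.5, 33.6, 37.7 and 34.5 CPM in water and 45.5, 47.2, 40.1, 43.9 and 45.1 CPM at 0.74 µg/L. The lowest exposed library lay above the highest water library by 2.39 CPM. Its log2 fold change came to 0.38 ± 0.07 (SE), with an edgeR adjusted p of 0.0368, and the sum over its 3 transcripts was called as well (0.36 ± 0.07, edgeR adjusted p = 0.0185). The inhibitory alpha subunit gnai2a had no transcript called, but its sum over 2 transcripts read 51.4, 53.3, 55.2, 53.4 and 57.4 CPM in water and 76.5, 74.7, 73.8, 78.4 and 75.3 CPM at 0.74 µg/L. The 2 groups of gnai2a sums were 16.4 CPM apart at their nearest, and the rise of 0.48 ± 0.06 (log2, SE; edgeR adjusted p = 0.000548) held in all 26 fits. The sum of rab3b, a small GTPase of regulated secretion, rose by 0.84 ± 0.17 (log2, SE; edgeR adjusted p = 0.0441), and that call held in 2 of the 10 fits without a library of these groups.

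The calls that come next were put in order by the known roles of their genes after the calls had been seen, and no list stands behind that order. Kinectin (ktn1, XM_039666693.1) read 44.9, 36.8, 42.1, 41.2 and 50.5 CPM in water and 88.3, 93.8, 109.8, 125 and 114 CPM at 0.74 µg/L. The lowest exposed library was at 88.3 CPM and the highest water library at 50.5 CPM. The log2 fold change came to 1.301 ± 0.19 (SE), with an edgeR adjusted p of 0.00307, the sum over the 4 ktn1 transcripts rose by 0.70 ± 0.11 (edgeR adjusted p = 0.00684), and both held in all 26 fits. The called transcript made up 38.7% ± 3.69 of ktn1 counts in water and 58.4% ± 4.06 at 0.74 µg/L (SD, n = 5 each). Its most abundant partner, XM_039666685.1, had means of 58.0 and 69.9 CPM and was not called (edgeR adjusted p = 0.893). The small GTPase rab28 (XM_039654938.1), which acts at cilia and in photoreceptors, read 21.4, 24.6, 22.4, 21.9 and 25.1 CPM in water and 16.0, 14.9, 13.2, 15.8 and 16.5 CPM at 0.74 µg/L, with no overlap. It fell by 0.59 on the log2 scale (SE 0.08; edgeR adjusted p = 0.00154), and the rab28 sum had a log2 fold change of -0.44 ± 0.09 (SE; edgeR adjusted p = 0.0295). The transcript call held in all 26 fits and the sum's call in 2 of the 10 that left out a library of these groups.

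The actin-binding protein lasp1 (XM_039685815.1) read 69.4, 66.3, 73.95, 72.1 and 66.2 CPM in water and 86.7, 86.5, 82.5, 95.3 and 90.6 CPM at 0.74 µg/L, without overlap, a log2 fold change of 0.34 ± 0.06 (SE; edgeR adjusted p = 0.0248). The scaffold akap12a (XM_039681697.1), which anchors protein kinase A, read 29.9, 28.1, 24.8, 32.8 and 26.6 CPM in water and 22.8, 17.1, 21.9, 21.1 and 18.7 CPM at 0.74 µg/L. Its groups came within 2.02 CPM of each other, and the log2 fold change came to -0.48 ± 0.09 (SE), with an edgeR adjusted p of 0.0494. For heatr5b (XM_039690473.1), which acts in endosomal sorting, the values were 35.0, 34.1, 33.97, 34.9 and 37.7 CPM in water and 44.4, 48.9, 42.6, 44.4 and 45.4 CPM at 0.74 µg/L. It rose by 0.36 ± 0.06 (log2, SE; edgeR adjusted p = 0.0248), again without overlap. The membrane protein tmem59 (XM_039676497.1) read 72.5, 73.6, 77.7, 77.0 and 71.7 CPM in water and 86.4, 91.2, 92.2, 89.5 and 88.8 CPM at 0.74 µg/L. This was the smallest of the called changes with a symbol, 0.27 ± 0.05 (log2, SE; edgeR adjusted p = 0.0368), and the groups did not overlap. The lasp1 and heatr5b calls held in 2 of the 10 fits without a library of these groups, the akap12a call in 1 and the tmem59 call in 0. As gene sums, the dynein motor heavy chain dync1h1 rose by 0.31 ± 0.06 (edgeR adjusted p = 0.0152) and the membrane skeleton protein sptbn1, a beta-spectrin, by 0.32 ± 0.07 (edgeR adjusted p = 0.0368). The sum of enah, which promotes actin filament growth, fell by 0.41 (log2, SE 0.08; edgeR adjusted p = 0.0295).

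On the epidermal list, the keratin krt97 (XM_039682219.1) read 347, 362, 374, 381 and 347 CPM in water and 521, 584, 474, 477 and 558 CPM at 0.74 µg/L. The lowest exposed library exceeded the highest water library by 93.7 CPM, and the log2 fold change came to 0.53 ± 0.09 (SE), with an edgeR adjusted p of 0.0148. The transcript call was lost without water replicate A, B or E or 0.74 µg/L replicate A, B or E. Its gene has 1 transcript in the reference table, so the gene sum holds the same counts. In the fit of gene sums the krt97 call held in all 26 fits (edgeR adjusted p = 0.00709). It was the only edgeR call among 43 epidermal transcripts, of which DESeq2 also called 1, and whose median was 0.21, with 36 positive. In the same list dspb, a desmoplakin of cell junctions, read 106, 93.5, 112, 93.7 and 88.0 CPM in water and 137, 173, 134, 133 and 138 CPM at 0.74 µg/L. The dspb values did not overlap, and the log2 fold change of 0.54 ± 0.16 (SE) was not called (edgeR adjusted p = 0.314).

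The ribosomal protein gene rpl23a (XM_039693855.1), of the large subunit, read 452, 474, 409, 396 and 444 CPM in water and 681, 636, 637, 588 and 661 CPM at 0.74 µg/L. The lowest exposed library was at 587.5 CPM and the highest water library at 474 CPM. It rose by 0.56 ± 0.09 (log2, SE; edgeR adjusted p = 0.00873) in all 26 fits. The splicing regulator srek1 (XM_039661854.1) read 60.3, 56.0, 52.4, 53.0 and 44.7 CPM in water and 11.4, 14.4, 19.9, 16.0 and 18.1 CPM at 0.74 µg/L, so that no exposed library came near the lowest water value. Its log2 fold change came to -1.74 ± 0.30 (SE), with an edgeR adjusted p of 0.0233, and 3 of the 10 fits without a library of these groups kept the call. The second srek1 transcript had means of 62.3 and 57.9 CPM, and the sum of both differed by -0.65 ± 0.16 (log2, SE; edgeR adjusted p = 0.0909). Among 184 transcripts of splicing regulators srek1 was the only edgeR call, DESeq2 called 2, and the median was -0.003. The sums of tial1, an RNA-binding protein of splicing and stress granules, and cica, the transcriptional repressor capicua, rose by 0.91 ± 0.17 and 0.92 ± 0.17 (log2, SE; edgeR adjusted p = 0.0164 and 0.0200). The tial1 sums ran from 15.9 to 28.5 CPM in water and from 35.6 to 46.4 CPM at 0.74 µg/L, without overlap.

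A transcript of the homeobox gene meis1b (XM_039690365.1) read 49.9, 47.2, 52.2, 45.9 and 50.2 CPM in water and 58.9, 64.1, 60.5, 57.8 and 65.4 CPM at 0.74 µg/L, a rise of 0.32 ± 0.06 (log2, SE; edgeR adjusted p = 0.0368). Its gene sum differed by 0.14 ± 0.05 (edgeR adjusted p = 0.236). The corepressor irf2bp2a (XM_039649081.1) read 90.7, 81.9, 88.9, 75.8 and 84.9 CPM in water and 111, 114, 101, 105 and 109.7 CPM at 0.74 µg/L, a rise of 0.35 ± 0.07 (log2, SE; edgeR adjusted p = 0.0499). Both pairs of groups stayed apart, by 5.53 and 9.997 CPM. The zinc finger gene zfand3 (XM_039672387.1) read 53.4, 55.5, 55.8, 52.6 and 58.3 CPM in water and 73.3, 69.4, 66.2, 79.1 and 80.7 CPM at 0.74 µg/L, rising by 0.42 ± 0.05 (log2, SE; edgeR adjusted p = 0.000976), and this call and that of its gene sum (0.41 ± 0.05) held in all 26 fits. A further zinc finger gene, znf576.1 (XM_039679467.1), read 45.0, 45.2, 44.5, 44.3 and 45.9 CPM in water, a narrow range, and 36.8, 30.7, 37.1, 29.5 and 30.9 CPM at 0.74 µg/L. Its log2 fold change came to -0.45 ± 0.09 (SE), with an edgeR adjusted p of 0.0434. For msantd1 (XM_039658561.1) the values were 22.1, 26.9, 22.3, 23.2 and 25.3 CPM in water and 16.6, 17.4, 17.2, 17.7 and 17.9 CPM at 0.74 µg/L. Its log2 fold change came to -0.47 ± 0.08 (SE), with an edgeR adjusted p of 0.0124, and the call was lost without water replicate B or 0.74 µg/L replicate A. The cskl transcript (XM_039680301.1) read 8.07, 7.05, 7.40, 6.50 and 5.86 CPM in water and 10.9, 9.68, 9.77, 11.2 and 10.7 CPM at 0.74 µg/L, a rise of 0.59 ± 0.11 (log2, SE; edgeR adjusted p = 0.0494) that 0 of the 10 fits without a library of these groups kept.

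Transcripts that the reference table does not pair with a gene gave 12 calls, 6 higher and 6 lower. The smallest adjusted p-values among those that rose belonged to XM_039651073.1 (0.42 ± 0.07, edgeR adjusted p = 0.00910) and XM_039660579.1 (0.74 ± 0.14, edgeR adjusted p = 0.0368). Among those that fell they belonged to XM_039647559.1 (-2.75 ± 0.34, edgeR adjusted p = 0.000963) and XM_039691699.1 (-1.08 ± 0.18, edgeR adjusted p = 0.0132, log2 and SE throughout). XM_039647559.1 read 29.9, 37.1, 31.99, 30.8 and 45.5 CPM in water and 6.64, 8.09, 1.86, 2.74 and 6.83 CPM at 0.74 µg/L, so that the groups lay far apart. The single called transcript with a locus number, LOC120471315, fell by 0.45 on the log2 scale (SE 0.06; edgeR adjusted p = 0.00154), from 109 ± 9.36 CPM in water to 79.8 ± 3.80 CPM at 0.74 µg/L (SD, n = 5 each), in all 26 fits. One of the 12 was a non-coding model, the only one of the 39 whose groups overlapped: it was at 0 in all exposed libraries and in 1 water library, and at most 1.03 CPM in the others.

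In total 19 of the 27 called transcripts with a gene also had that gene's sum called. These were all 14 whose gene has 1 transcript in the table, and 5 of the 13 whose gene has more. Conversely, 13 of the 32 called genes had no transcript called. Besides gnai2a, rab3b, mpz, dync1h1, sptbn1, enah, tial1 and cica these were the fibroblast growth factor receptor fgfr2 (0.29 ± 0.06), the deubiquitinating enzyme usp47 (0.37 ± 0.08), zswim6 (0.37 ± 0.07), prrc2b (0.32 ± 0.06) and LOC120473437 (0.53 ± 0.11), all higher at 0.74 µg/L (log2, SE; edgeR adjusted p between 0.0312 and 0.0377). Most of these calls were lost in several fits without 1 library, which hold fewer samples, whether that library was water or 0.74 µg/L. Of the 10 fits without a library of the 2 groups, the sums of dync1h1 and tial1 were called in 7, cica in 5, enah and zswim6 in 3, usp47 and mpz in 2, sptbn1, prrc2b and LOC120473437 in 1 and fgfr2 in 0.

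Of the 24 lists of pathway and tissue genes, 16 had 0 calls by edgeR. These 16 held 710 transcripts, of which 71 had an unadjusted p below 0.05 and 4 were called by DESeq2. Over all transcripts tested, 8.10% had an unadjusted p below 0.05, DESeq2 called 406 of 43837, and 49.2% were positive. Their medians are a description of these libraries, and in whole larvae fewer cells of a type and less RNA per cell cannot be told apart. The lens list had the highest median, 0.33 over 34 transcripts, with 27 positive and 11 at an unadjusted p below 0.05, all of them higher. The lens filament gene bfsp2 read 41.0, 29.5, 22.6, 22.8 and 28.9 CPM in water and 65.2, 68.9, 44.5, 54.1 and 56.6 CPM at 0.74 µg/L, without overlap (0.997 ± 0.26, log2, SE; edgeR adjusted p = 0.201, not called), and the smallest p among lower members was that of crygs2 (-0.48 ± 0.29; edgeR adjusted p = 0.764), a crystallin gene. Mean log2 levels of the lens list, set against the water mean, ran from -0.37 to 0.34 in water and from -0.04 to 0.53 at 0.74 µg/L, so the list as a whole overlapped. For the list of cartilage, bone and collagen genes the median was 0.29 over 85 transcripts, with 73 positive. Of the 85, edgeR called 0 and DESeq2 1, and at an unadjusted p below 0.05 the list had 19 higher and 1 lower. Its library means ran from -0.30 to 0.13 in water and from -0.01 to 0.79 at 0.74 µg/L, and exposed replicates C and D, at 0.56 and 0.79, stood above the other 3. The collagen gene col14a1a of that list differed by 0.29 ± 0.09 (log2, SE; edgeR adjusted p = 0.323), and 1 transcript of runx2a, a regulator of bone formation, had a rounded count of 0 in all exposed libraries and in 1 water library (edgeR adjusted p = 0.201).

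Exocrine pancreas and intestine had a median of 0.18 over 44 transcripts, with 36 positive and none called, the trypsin-like protease prss59 at 0.30 ± 0.11 having the smallest p among the higher (log2, SE; edgeR adjusted p = 0.450) and ptf1a, a pancreatic transcription factor, at -0.23 ± 0.21 among the lower (edgeR adjusted p = 0.979). Medians below those of most lists were found for neuropeptides (-0.15, 51 transcripts), photoreceptors (-0.14, 50 transcripts) and cholesterol biosynthesis (-0.13, 28 transcripts), with 0 calls by edgeR in each and 3, 6 and 0 transcripts at an unadjusted p below 0.05. Neuropeptide transcripts had a median length of 900 bases, in a length class whose median over all tested transcripts was -0.09. The part of length in the neuropeptide median was not tested. In the neuropeptide list all 5 exposed libraries lay below the water mean, between -0.23 and -0.01, beside a range of -0.08 to 0.08 among water libraries. The tachykinin gene tac3b, of hypothalamic neurons, read 21.1, 23.1, 23.8, 28.7 and 26.8 CPM in water and 19.2, 21.2, 19.8, 21.6 and 18.7 CPM at 0.74 µg/L. These values overlapped (-0.30 ± 0.13, log2, SE; edgeR adjusted p = 0.553), and the secretogranin gene scg2b differed by 0.19 ± 0.08 (edgeR adjusted p = 0.581). The rod phosphodiesterase subunit pde6b differed by -0.31 ± 0.11 and exorh, the opsin of the pineal gland, by 0.43 ± 0.26 (log2, SE; edgeR adjusted p = 0.421 and 0.775). Among sterol genes insig1, which restrains sterol synthesis, differed by -0.27 ± 0.15 and fdft1, a squalene synthase, by 0.40 ± 0.21 (log2, SE; edgeR adjusted p = 0.694 and 0.689).

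For the stress axis (20 transcripts, median -0.07) there were 0 edgeR calls and 1 transcript at an unadjusted p below 0.05, that of the glucocorticoid receptor nr3c1. It read 63.8, 52.8, 56.5, 53.9 and 54.5 CPM in water and 69.4, 67.4, 65.5, 66.6 and 69.6 CPM at 0.74 µg/L, and did not overlap (0.27 ± 0.08, log2, SE; edgeR adjusted p = 0.298). The hormone precursor pomca differed by -0.45 ± 0.22 (edgeR adjusted p = 0.624). Heat shock and oxidative stress genes had a median of 0.02 over 52 transcripts, with ddit3, of the unfolded protein response, at 0.53 ± 0.16 and gpx1b, a glutathione peroxidase, at -0.31 ± 0.11 (edgeR adjusted p = 0.302 and 0.398). The circadian clock list had a median of -0.04 over 69 transcripts, and 2 transcripts of the clock output gene tefb differed in opposite directions, by 0.41 ± 0.16 and -0.48 ± 0.17 (log2, SE; edgeR adjusted p = 0.499 and 0.453). Medians lay between -0.02 and 0.04 for hepatocyte, immune, cardiac muscle, skeletal muscle, erythroid and cell cycle genes, with 0 calls in each of these lists. The higher members with the smallest p were serpind1 (0.31 ± 0.10), hamp (0.84 ± 0.33), atp2a2a (1.02 ± 0.40), desmb (0.49 ± 0.15), rhag (0.11 ± 0.10) and cdkn1bb (0.23 ± 0.07), in that order of lists (log2, SE; edgeR adjusted p between 0.332 and 0.975). Among lower members they were socs3a (-0.92 ± 0.46), nppa (-0.35 ± 0.23), ckmt2a (-0.25 ± 0.16) and slc25a37 (-0.41 ± 0.13) for the immune, cardiac, skeletal muscle and erythroid lists (edgeR adjusted p between 0.346 and 0.839). For hepatocytes and the cell cycle they were 1 transcript each of serping1 and kif11, with a rounded count of 0 in all exposed libraries and in 3 water libraries (edgeR adjusted p of 0.529 and 0.538).

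**Figure D4:**
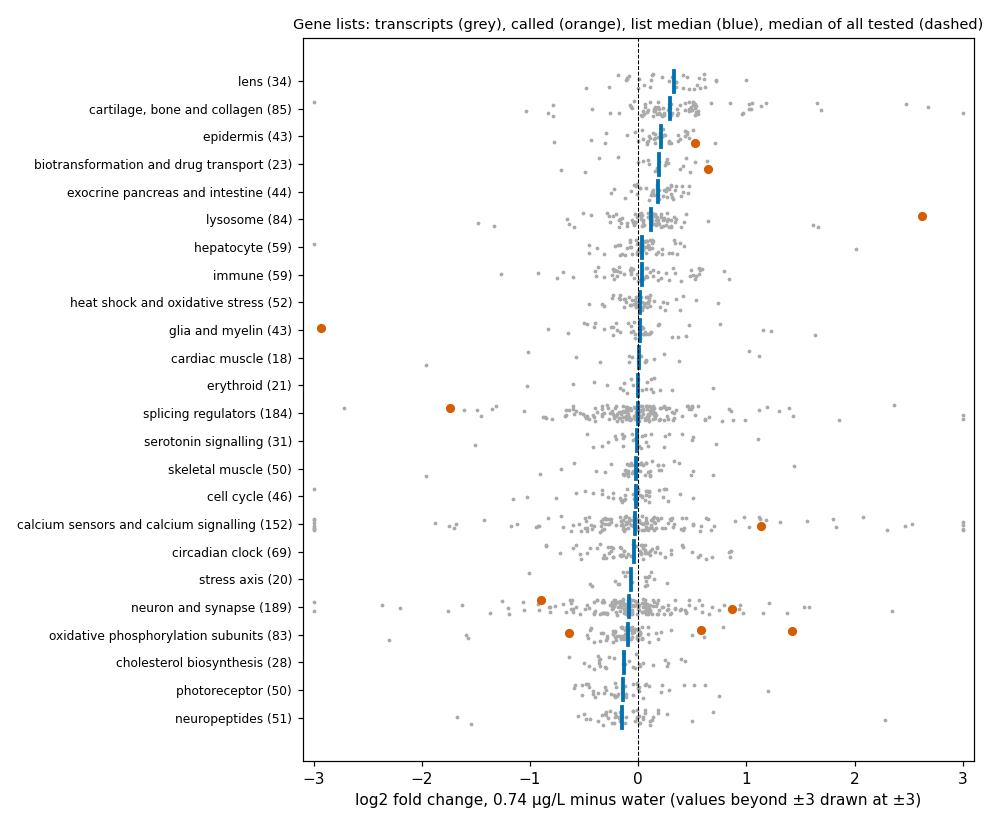
Log2 fold change at 0.74 µg/L against water for each transcript of the 24 gene lists (grey points, called ones orange; number of transcripts in brackets), with each list's median in blue and the median of all tested transcripts dashed. Medians run from -0.15 for neuropeptides to 0.33 for lens, and 8 lists hold at least 1 called transcript.

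The levels at the other concentrations did not follow the order of concentration. For slc22a16 the group means were 107 CPM at 0.19 µg/L, 63.3 CPM at 3.38 µg/L, 60.4 CPM at 10.2 µg/L and 102 CPM at 47.2 µg/L, beside 59.9 CPM in water and 93.4 CPM at 0.74 µg/L. The means of hpca in the same order were 13.5, 6.89, 6.66 and 13.6 CPM, and those of glb1l2 were 31.6, 2.31, 3.18 and 29.4 CPM. For XM_039689575.1 of atp5mc3b they were 186, 305, 311 and 183 CPM, and for the mbpa transcript 3.14, 24.1, 36.6 and 2.37 CPM. Thus, for these 5, the means at 3.38 and 10.2 µg/L were nearer to water and those at 0.19 and 47.2 µg/L nearer to 0.74 µg/L. The krt97 means were 444, 385, 401 and 340 CPM, so at 47.2 µg/L that transcript was at its water level.

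Set directly against 3.38 µg/L, the next concentration, larvae at 0.74 µg/L differed in 620 of 43837 transcripts (1.41%; edgeR adjusted p below 0.05), 382 of them higher at 0.74 µg/L. This comparison shares its 0.74 µg/L libraries with the one against water. The fragment-length measure was 222 to 242 bases at 3.38 µg/L and 250.4 to 263 bases at 0.74 µg/L, without overlap. With that measure as a covariate 0 transcripts were called by edgeR, and 1720 had an unadjusted p below 0.05. The measure and concentration cannot be told apart here either. The transcript of slc22a16 had a log2 fold change of 0.56 ± 0.06 (SE; edgeR adjusted p = 0.000188) against 3.38 µg/L, hpca one of 1.04 ± 0.15 (0.00336), glb1l2 one of 3.76 ± 0.53 (0.00217) and rab28 one of -0.66 ± 0.08 (0.000407). Those of anks1b (0.38 ± 0.16, edgeR adjusted p = 0.272) and cskl (0.38 ± 0.11, 0.101) were not called there. The count was 338, 77, 274, 173 and 474 without 0.74 µg/L replicates A to E. It was 119, 1147, 40, 461 and 127 without 3.38 µg/L replicates A to E.

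The count against water also changed when single libraries were left out. Without water replicates A to E there were 21, 15, 23, 19 and 16 called transcripts, and without 0.74 µg/L replicates A to E there were 12, 15, 27, 18 and 17. Of those, 7 were higher and 8 lower without 0.74 µg/L replicate B, and 8 higher and 9 lower without replicate E, beside 24 higher and 15 lower with all libraries. Leaving out replicate C at 3.38 µg/L or replicate B at 47.2 µg/L gave 25 each. For gene sums the counts were 45, 11, 17, 16 and 17 without water replicates A to E, and 20, 15, 32, 14 and 18 without 0.74 µg/L replicates A to E. Across all 26 such fits 12 transcripts were called each time. They were slc22a16, both atp5mc3b transcripts, zfand3, rab28, LOC120471315, hpca, ktn1, rpl23a, synpra and 2 without a gene, XM_039647559.1 and XM_039651073.1. Of these 12, the calls of synpra, XM_039651073.1, zfand3 and LOC120471315 were lost when only the 10 libraries compared were fitted (edgeR adjusted p of 0.101, 0.110, 0.0575 and 0.0506). Of the 39 transcript calls 17 were kept in that fit, and the other calls with a symbol that were lost were those of msantd1, mbpa, heatr5b, lasp1, gnas, meis1b, tmem59, anks1b, znf576.1, cskl, akap12a and irf2bp2a. In the 10 fits without a library of the 2 groups, the transcript calls of rtn1a and gnas held in 2, those of meis1b and znf576.1 in 1 and that of irf2bp2a in 0. Among gene sums 11 were called in all 26 fits without 1 library and also with only the 10 libraries, namely slc22a16, hpca, zfand3, gnai2a, LOC120471315, glb1l2, rpl23a, ktn1, msantd1, krt97 and ndufb5. Of these, slc22a16, LOC120471315, glb1l2, rpl23a, msantd1, krt97 and ndufb5 have 1 transcript each in the reference table. Their sums hold the same counts as that transcript.

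Transcript length moved with the fold change. The median log2 fold change was -0.16 for the 563 transcripts of up to 500 bases, -0.09 for 2946 of over 500 and up to 1000 bases and -0.03 for 11820 of up to 2000 bases. It was -0.0009 for 10999 transcripts of over 2000 and up to 3000 bases, 0.02 for 11349 of up to 5000 bases and 0.04 for 6160 longer ones. These medians ran in the order of length, while quartiles in each class lay on both sides of 0. With the fragment-length measure as a covariate 1 transcript, slc22a16, was called (edgeR), and 1466 had an unadjusted p below 0.05. Among gene sums slc22a16 alone was called (edgeR adjusted p = 0.00679), with ndufb5, gnai2a, hpca and zfand3 at 0.0826, 0.138, 0.140 and 0.140. The measure separates the groups, so a call lost in these fits does not show that the difference went. Transcript log2 fold changes there were 1.06 for hpca, 0.41 for zfand3, 1.32 for ktn1, 0.60 for rpl23a, -0.50 for rab28 and -0.84 for synpra. They were 0.47 and -0.56 for atp5mc3b, and -0.42, -2.62 and 0.37 for LOC120471315, XM_039647559.1 and XM_039651073.1. With slc22a16 these are the 12 called in all 26 fits without 1 library. At 0.19 µg/L the measure ran from 248 to 258 bases, near that of 0.74 µg/L. At 3.38 and 10.2 µg/L it ran from 222 to 242 and from 226 to 247 bases. The means of slc22a16, hpca, glb1l2 and the mbpa transcript were 63.3, 6.89, 2.31 and 24.1 CPM at 3.38 µg/L. At 10.2 µg/L these means were 60.4, 6.66, 3.18 and 36.6 CPM. At 47.2 µg/L the measure was 247, 228 and 239.6 bases in replicates A to C, beside 235 to 239.6 bases in water. In those 47.2 µg/L libraries the means of slc22a16, hpca, glb1l2 and the mbpa transcript were 102, 13.6, 29.4 and 2.37 CPM. Those of krt97 and the rtn1a transcript were 340 and 92.4 CPM, nearer to their water means of 362 and 86.6 CPM. The part of fragment length in these levels was not tested.

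**Figure D5:**
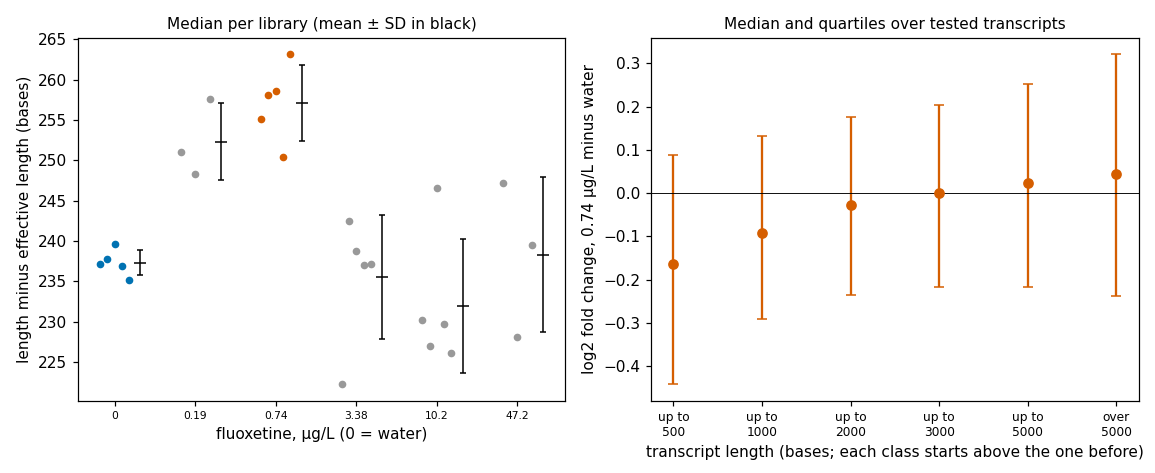
Left, transcript length minus effective length (median over transcripts of at least 3000 bases) in each library by fluoxetine concentration, with mean ± SD in black. The 5 libraries at 0.74 µg/L lie between 250.4 and 263 bases and the water libraries between 235 and 239.6 bases. Right, median and quartiles of the log2 fold change at 0.74 µg/L against water by transcript length, rising from -0.16 to 0.04.

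In the authors' deposited table for 0.74 µg/L against water, 400 of 26962 transcripts had an adjusted p below 0.05 (1.48%), 213 higher and 187 lower. Of the 39 transcripts called here, 38 are listed in the authors' deposited table, each with an adjusted p below 0.05 and the same sign. The authors' deposited table gives slc22a16 a log2 fold change of 0.64 with an adjusted p of 5.55e-22, and hpca one of 1.13 with an adjusted p of 1.06e-10. Its lowest mean of normalized counts is 14.5, so transcripts of lower counts are not in it.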

How the data were processed

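Per the labels' protocols, poly(A) RNA of pooled larvae was sequenced with a kit that keeps the strand, and per the submitters' processing notes Trimmomatic 0.38, kallisto and DESeq2 were used. Neither the transcript index and genome build nor kallisto's strand setting is given in the sources used here. Per transcript and library, the authors deposited estimated counts from kallisto, which were rounded to whole numbers, and TPM, used only for levels within 1 gene. Transcript and effective lengths in bases, deposited beside them, are treated as a score and gave the fragment-length measure. For each concentration the authors deposited a comparison table with, per the file headers, the mean normalized count (a signal), the log2 fold change with its SE, the test statistic (a score), the p-value and the adjusted p-value. Those tables were only set beside the tests made here.

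Accessions without version were matched to the RefSeq gene table of assembly fPimPro1.hap1.1, used for names alone, which paired 31554 of 57299 transcripts (55.1%, 82.6% of counts). Counts were tested in edgeR 4.0.16 (limma 3.58.1, R 4.3.3) with filterByExpr, TMM scaling (factors 0.951 to 1.04) and a robust quasi-likelihood fit to all 26 libraries, which share 1 estimate of spread, per transcript and per gene sum. Calls used two-sided tests with Benjamini-Hochberg adjustment over all features tested, and SE came from the fold change and its F statistic. Alternatives were DESeq2 1.42.0, other scaling and filters, fewer libraries, the replicate letter as a block and the fragment-length measure as a covariate. Floors of 3 counts cover counting error alone, as no molecular identifiers are described. Every pair of replicates differed by more than sampling noise (chi-square per degree of freedom at least 17.7).

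The comparison and the gene lists were chosen with earlier results of these data known. Named were all called transcripts with a symbol, called gene sums, both serotonin transporters and, for each list, its called members or, with none, the member of smallest p in each direction. The transcripts of cyp3a65, lgmn, rcan1a, dspb and mpz were chosen for naming with their values in view, as were the gene sums outside the 10 of largest change. For atp2a2a, tefb and other genes with several transcripts, and for near-identical paralogs, kallisto splits shared reads, so their values are less certain.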

Additional observations from a re-analysis of the deposited data

Results flagged for a closer look

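A check for outliers took in 90 groups of 5 libraries, from part of the called transcripts and gene sums in water and at 0.74 µg/L. Of these groups 2 had a library far from its fellows. The check's rate of about 1 in 20 is for groups not chosen by their values. These groups came from called features, so the 2 cannot be set against that rate. Water replicate E was the highest of its group for the heatr5b transcript XM_039690473.1, at 37.7 CPM beside 33.97 to 35.0 CPM in the other 4. It was also the highest for the zfand3 gene sum, at 73.8 CPM beside 67.4 to 69.0 CPM. In both cases it remained below every 0.74 µg/L library.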

How the results depend on the processing

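Against water, the 39 called transcripts became 406 with DESeq2, 23 with no count filter, 103 with the replicate block, 1 with fragment length as a covariate and 1 with both block and covariate. Leaving out 1 library gave from 12 to 43. Fitting only the 10 libraries again gave 39, of which 17 were shared. The 26 gene sums called higher became 165 with DESeq2, 162 with the replicate block, 1 with the covariate (slc22a16) and 2 with both (slc22a16 and ndufb5), and from 9 to 36 without 1 library. The 6 called lower became 87 with DESeq2, 10 with a filter of 1 CPM in 5 libraries, 115 with the replicate block, 0 by edgeR with the covariate (276 at an unadjusted p below 0.05), 0 by edgeR with both (704 at an unadjusted p below 0.05), and from 2 to 15 without 1 library. Against 3.38 µg/L, the 620 became 2458 with DESeq2, 165 with only the 10 libraries compared, 1739 with the replicate block, 0 by edgeR with the covariate (1720 at an unadjusted p below 0.05), 0 by edgeR with block and covariate (2046 at an unadjusted p below 0.05), and from 40 to 1147 without 1 library. RLE scaling, a fit that was not robust and, apart from the gene sums called lower, the filter of 1 CPM kept each count within 1.5 times. The cause of these shifts was not tested, except that omitted libraries leave fewer samples and that no filter leaves more transcripts to test.

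Libraries were correlated on their departures from their group's mean, transcript by transcript, and not on the levels themselves. On that scale same-letter libraries correlated at 0.068 to 0.136, and libraries of different letters at -0.065 to 0.033. Thus 5 of 5 exposed libraries correlated best with their own letter. Departures within a group sum to 0, so where same-letter values lie above 0 those of different letters tend to average below 0. The main fit left out the letters, and r was not above 0.1 in every pair. Every same-letter r was above every r between different letters, so the main fit ignored a pairing that the libraries show. With the letter as a block, 103 transcripts and 277 gene sums were called by edgeR. What the letters share was not tested. Under the replicate block the fragment-length difference is 19.8 bases by arithmetic, since the pairs are complete. There the exact permutation p of 0.0625 is the smallest that 5 pairs allow. The difference ran from 18.2 to 21.4 bases without 1 library, and was 10.3 bases over transcripts of at least 1000 bases. No called transcript or gene sum reversed its direction under these alternatives, while slc6a4a, not called at 0.07, turned to -0.11 with the covariate, -0.02 with block and covariate and just below 0 without water replicate E. A count of 0 in 1 library allows a level of up to 0.109 to 0.220 CPM.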
